A study of Mus musculus with 7 samples.

Results

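Elfn1, Elfn2, Megf9, Megf10 and Megf11 are 5 genes for cell-surface proteins, taken here as members of the Elfn and Megf families. All 5 had a probe that could be named, out of 17178 named genes on the array, and all 5 were among the 13341 genes tested. Elfn1 and Megf11 were chosen because their signals fell in the comparison described here, and the other 3 because they share a family name with a fallen gene. The differences of the members are therefore descriptions with standard errors and carry no test.

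Messenger RNA was measured in the subpallium, the ganglionic eminences together with the septum, dissected from female CD-1 mouse embryos at E12.5, with 1 embryo on each array. The 4 control embryos carry only the label Control, and no alleles are given for them. The 3 embryos labelled Otx2 cKO carried a floxed Otx2 allele with RxCre, a Cre line that acts across the forebrain. The cortical hem and choroid plexus, in the caudal dorsomedial forebrain, are spared by this line. OTX2 is a homeodomain protein that regulates genes of the anterior brain, and the comparison asks which genes differ in the subpallium when it is deleted.

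ELFN1 and ELFN2 are transmembrane proteins with leucine-rich repeats outside the cell. At synapses they bind group III metabotropic glutamate receptors of the facing axon, and their cytoplasmic parts bind protein phosphatase 1. Elfn1 is best known from somatostatin interneurons of cortex and hippocampus, which descend from the medial ganglionic eminence (MGE). MEGF10 and MEGF11 are close paralogs with many EGF-like repeats, related to the engulfment receptor Draper of flies; MEGF10 takes part in the clearance of dying cells and synapses, and both act in the regular spacing of retinal neurons. MEGF9 also carries EGF-like repeats, of the laminin type, and is a more distant relative.

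Each member was read by 1 probe, printed as 1 spot on each array. The probes are A_51_P156222 for Elfn1, A_51_P162083 for Elfn2, A_52_P231170 for Megf9, A_51_P514070 for Megf10 and A_52_P668442 for Megf11. They target the RefSeq transcripts NM_175522, NM_183141, NM_172694, NM_001001979 and NM_172522, in the same order. The genes lie on mouse chromosomes 5, 15, 4, 18 and 9, respectively. The sources used here do not say where each probe lies within its transcript, so a change in splicing and a change in total transcript cannot be told apart.

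The promoter windows of Elfn1, which fell, and of its paralog Elfn2 are shown to compare the starts of the pair. Both are from RefSeq on GRCm38.p6 and run from 250 bases before to 50 bases after an annotated start. The Elfn1 window is chr5:139907616-139907915 on the plus strand and the Elfn2 window chr15:78718722-78719021 on the minus strand. Capitals mark the E-box CAGCTG.
Elfn1: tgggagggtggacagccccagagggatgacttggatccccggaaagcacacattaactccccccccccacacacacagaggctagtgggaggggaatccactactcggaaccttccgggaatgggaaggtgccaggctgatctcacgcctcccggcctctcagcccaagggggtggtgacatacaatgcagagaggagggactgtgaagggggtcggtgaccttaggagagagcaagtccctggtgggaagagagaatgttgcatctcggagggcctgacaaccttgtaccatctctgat
Elfn2: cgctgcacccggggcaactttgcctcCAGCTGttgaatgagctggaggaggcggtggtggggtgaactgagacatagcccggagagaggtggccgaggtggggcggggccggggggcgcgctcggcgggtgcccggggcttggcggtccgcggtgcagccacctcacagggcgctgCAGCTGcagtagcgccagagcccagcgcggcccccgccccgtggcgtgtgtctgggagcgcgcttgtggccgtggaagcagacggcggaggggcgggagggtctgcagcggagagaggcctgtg

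The pair of windows differed in composition. The Elfn1 window held 59% G and C and 7 CpG dinucleotides, close to the medians of 52.7% and 7 over all 32851 promoter windows of this length, while the Elfn2 window held 73.3% and 29. The Megf9 window, the only other one of a member in the table used here, held 71% and 37. Motifs were searched as exact letters on both strands, and no match overlapped a match of another motif. TAATCC, the motif of OTX-type homeodomains, TAATTA, that of LIM and DLX-type homeodomains, and AAGTG, that of NKX2-type homeodomains, had 0 matches in the windows of Elfn1, Elfn2 and Megf9. They occurred in 7.06%, 5.29% and 46.4% of all windows. The E-box CAGCTG occurred in 16.3% of all windows, with 2 matches in the Elfn2 window and 0 in the Elfn1 window. These counts describe the letters of these windows alone.

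Every level below is a log2 signal after division by the 75th percentile of its array. The groups are called by their labels. The Otx2 probe itself was higher in the arrays labelled Otx2 cKO, at 1.77, 2.33 and 1.77 against 0.18 to 0.55 in controls (limma, difference 1.52 ± 0.17 SE, adjusted p = 0.0337), so the targeted transcript ran against the label. The sources used here do not say whether the probe lies in the deleted part, and directions below rest on the labels. Every array had between 68.4% and 72.2% of its spots well above background, and 0 spots were saturated. Of 10 markers of subpallial GABAergic cells, such as Gad1, Dlx2 and Gsx2, all 10 passed the background filter, as did 9 of 10 pallial markers. Of the 17178 named genes 13541 passed it, so passing does not check the tissue label.

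Elfn1 was lower in every array labelled Otx2 cKO. The 4 controls, replicates 1 to 4, had log2 signals of -0.44, -0.56, -0.66 and -0.66. The cKO arrays, replicates 1 to 3, had -1.60, -2.06 and -1.93. The groups did not overlap, and the highest cKO array lay 0.94 below the lowest control. The difference was -1.28 ± 0.13 (SE, n = 4 and 3), a 2.43-fold lower signal. Relative to the control mean, the cKO arrays kept 49.3%, 35.8% and 39.3% of the signal. The controls were tight, with an SD of 0.10, and the cKO arrays more spread, with an SD of 0.24; replicate 1 lay above the other two.

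Elfn2, its paralog, did not separate the groups. In replicate order, the controls had log2 signals of -5.24, -5.28, -5.14 and -5.30, and the cKO arrays -5.16, -5.68 and -5.30. Replicate 2 of the cKO group was the lowest array and replicate 1 lay within the control range. The difference was -0.14 ± 0.13 (SE, n = 4 and 3), and it was 0.10 within slide 1 and 0.01 without cKO replicate 2. The Elfn2 probe was dim: its spot was 3.41 to 4.25 times as bright as its local background, although it was well above background on all 7 arrays. A change in Elfn2 smaller than this spread could not be seen.

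Set against each other on the same arrays, the change of Elfn1 minus that of Elfn2 was -1.14 log2 units. By array, it was -1.10, -1.05 and -1.29 in cKO replicates 1 to 3, and it ran from -0.18 to 0.14 in controls. The spread of this value in the cKO arrays (SD 0.13) was smaller than that of Elfn1 alone, and both genes were lowest in replicate 2. The groups did not overlap in this value either, which follows from the choice of Elfn1 as a fallen gene beside a paralog that changed little.

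**Figure D1:**
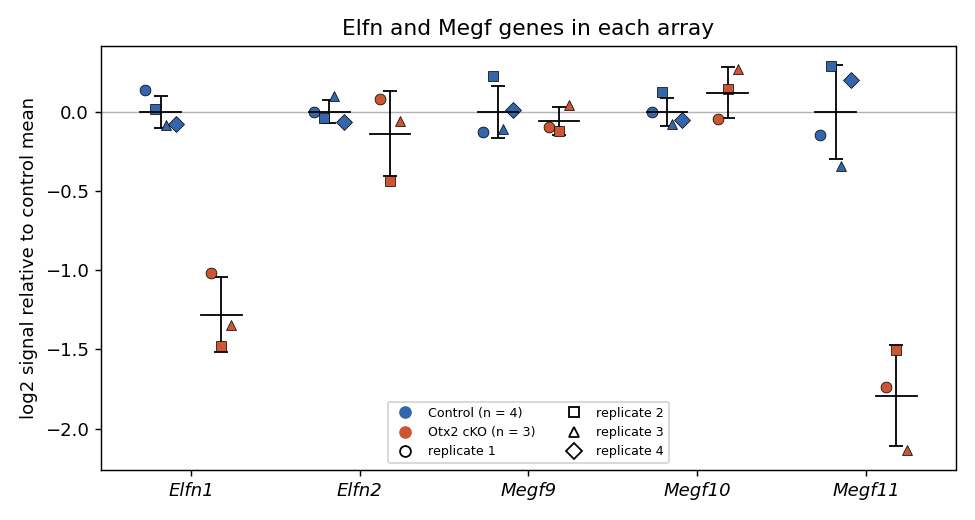
Log2 signal of each gene in each array relative to its control mean (vertical axis), with controls in blue and Otx2 cKO arrays in orange; symbols mark the replicate, short lines the group mean and bars the SD. Elfn1 and Megf11 have all 3 cKO arrays below all 4 controls, and Elfn2, Megf9 and Megf10 overlap between the groups.

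Megf11 had the larger difference of the pair that fell. The log2 signals of the controls were -3.09, -2.66, -3.28 and -2.74 in replicate order. Those of the cKO arrays were -4.68, -4.45 and -5.08. The groups did not overlap, with a gap of 1.16 between them, but the controls alone spanned 0.63 log2 units in this gene, with an SD of 0.30. The difference was -1.79 ± 0.21 (SE, n = 4 and 3), which is 3.46-fold lower. The cKO arrays kept 30.0%, 35.2% and 22.7% of the control mean, and the lowest was replicate 3, whereas Elfn1 was lowest in replicate 2. The change of Elfn1 minus that of Megf11 was 0.72, 0.02 and 0.79 in cKO replicates 1 to 3. In controls it ran from -0.28 to 0.28. In cKO replicate 2 both genes thus changed alike.

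The size of the Megf11 difference moved with the background correction. Its spot was 13.8 to 20.3 times its local background in controls and 5.30 to 7.41 times in cKO arrays. Without background subtraction the difference was -1.35 ± 0.15, and with normexp correction, which models the background, it was -1.20 ± 0.13 (2.30-fold lower). The authors' deposited values gave -1.44 ± 0.14. The direction was the same in all 27 alternatives, from -1.94 to -1.20. The Elfn1 difference was -1.15 ± 0.10 without background subtraction, -1.12 ± 0.099 with normexp and -1.20 ± 0.13 in the authors' deposited values. Over its 27 alternatives it ran from -1.41 to -1.10. With normexp the differences of Megf11 and Elfn1 thus lay close together.

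Megf10, the closest paralog of Megf11, was not lower. Control log2 signals were 1.82, 1.94, 1.74 and 1.76, and cKO log2 signals 1.77, 1.96 and 2.09, in replicate order. Replicates 2 and 3 of the cKO group lay above every control and replicate 1 within their range. The difference was 0.12 ± 0.10 (SE, n = 4 and 3), which was -0.11 within slide 1 and 0.27 within slide 2. This probe was bright, at 302 to 500 times its local background.

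Megf9 showed the smallest difference. The controls read -1.35, -0.99, -1.32 and -1.21 on the log2 scale, and the cKO arrays -1.31, -1.34 and -1.17, in replicate order. Every cKO array lay within the control range. The difference was -0.06 ± 0.11 (SE, n = 4 and 3) and turned to 0.01 within slide 2.

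The change of Megf11 minus that of Megf10 was -1.92 log2 units, and minus that of Megf9 it was -1.74. By array, the value against Megf10 was -1.69, -1.65 and -2.41 in cKO replicates 1 to 3 and ran from -0.27 to 0.25 in controls. Against Megf9 it was -1.64, -1.38 and -2.18, with controls from -0.23 to 0.19. In each pairing the cKO arrays lay outside the control range. This follows from the choice of Megf11 as a fallen gene, set beside paralogs that changed little. The paralogs that did not fall differed by at most 0.14 in size.

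**Figure D2:**
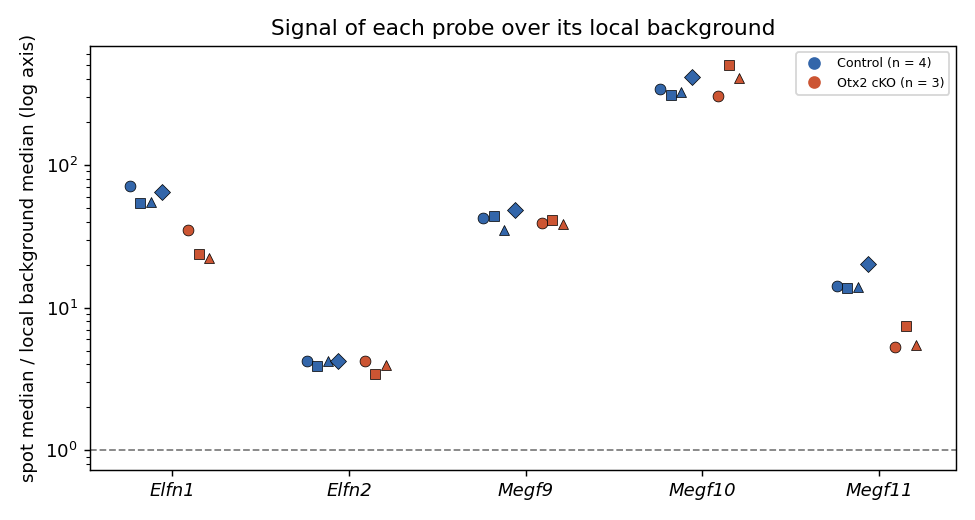
Brightness of each probe's spot divided by its local background (log axis) for controls in blue and Otx2 cKO arrays in orange; the dashed line marks equality with background, and values may be compared within a gene but not between genes. Elfn2 stays between 3.41 and 4.25 in all arrays, and Megf11 falls to between 5.30 and 7.41 in the cKO arrays.

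Elfn1 and Megf11 were 2 of the 17 genes called lower by limma (adjusted p under 0.05), which is 0.127% of the 13341 genes tested, and 0 of the other 3 members were called; 0 members were among the 0.0825% called higher. They were also the members without overlap between groups, as 7.65% of all genes tested were in the lower direction; 0 members had every cKO array above every control, against 5.14% of all genes. Both facts follow from how the genes were chosen. Elfn1 was called in 14 of 27 alternatives and Megf11 in 11. When 1 array was left out, Elfn1 was called only without cKO replicate 1, and Megf11 in 0 of 7 such fits. The differences held their size where the call was lost: without 1 array Elfn1 ran from -1.41 to -1.18 and Megf11 from -1.94 to -1.62.

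The arrays came from 2 slides and 4 litters. On slide 1 were cKO replicate 1 and control replicates 1 and 2, and on slide 2 the rest. Within slide 1 Elfn1 differed by -1.10 and Megf11 by -1.80, and within slide 2 by -1.33 and -1.75. In litter 2 were cKO replicates 1 and 3 with control replicates 2 and 3. Within it the differences were -1.15 ± 0.16 for Elfn1 and -1.91 ± 0.29 for Megf11. The remaining members differed there by -0.02 ± 0.12 for Elfn2, 0.09 ± 0.17 for Megf10 and -0.08 ± 0.16 for Megf9.

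**Figure D3:**
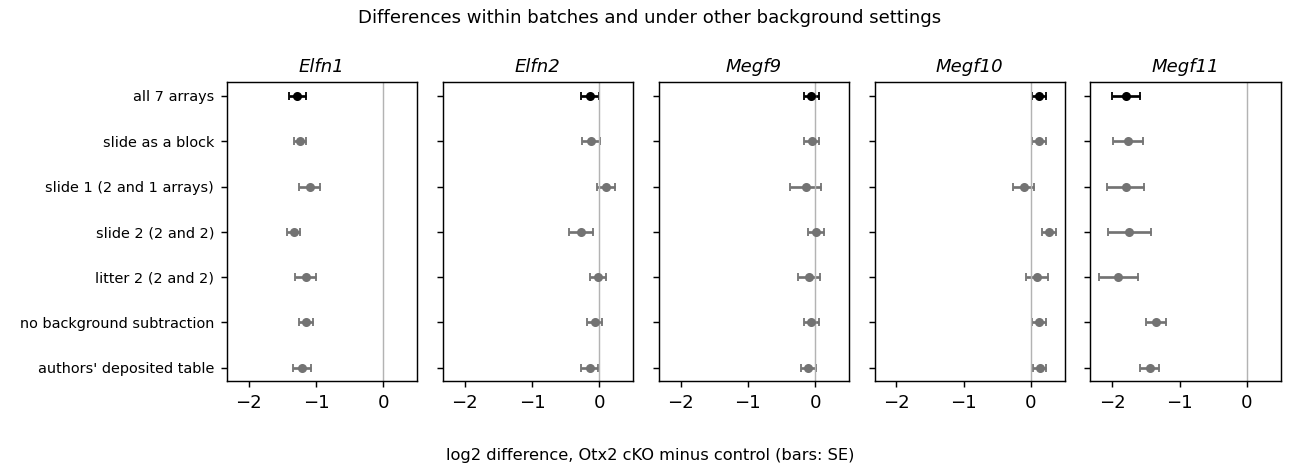
Log2 difference between Otx2 cKO and control arrays for each gene (horizontal axis, bars are SE) with all arrays, with slide as a block, within each slide, within litter 2, without background subtraction and in the authors' deposited values; bracketed numbers are control and cKO arrays. In the 7 lines drawn, Elfn1 lies at -1.10 or lower and Megf11 at -1.35 or lower, while Elfn2, Megf9 and Megf10 stay near 0.

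Elfn1 and Megf11 did not follow each other within the groups. Over the 7 arrays their signals had a Pearson r of 0.93, which the gap between the groups carries; over deviations from the group means it was -0.09. Elfn1 and Elfn2 had an r of 0.54 over the 7 arrays and 0.71 within groups. Megf10 and Megf9 had 0.44 and 0.66. These values describe 7 arrays that share slides and litters.

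The genes with the profile most like that of Elfn1 were sought among 12673 tested genes with a value on every array. They were Abracl, Gbx2, Mark2, Grk6 and Atat1, with Pearson r of 0.996, 0.995, 0.993, 0.990 and 0.990 over 7 arrays. Within the groups, r was 0.87 to 0.92 for these genes. They were chosen by r over the same arrays, so a high r within the groups follows in part from the choice. Gbx2, a homeobox gene, fell by 1.90 ± 0.16 on the log2 scale (limma, adjusted p = 0.0152), with control replicate 4 apart from the other controls. The other 4 differed by -0.60 to -0.21 and did not pass the test, so a like profile over arrays came with much smaller differences.

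For Megf11 the nearest profiles included those of Rftn2, Sbno2, Olig1 and Dvl2, with r of 0.982, 0.979, 0.979 and 0.971. Olig1, a basic helix-loop-helix gene of the oligodendrocyte lineage, fell by 1.44 ± 0.10 (limma, adjusted p = 0.0152). Rftn2, Sbno2 and Dvl2 had values of -0.44 to -0.14 and did not pass. Within the groups r was 0.70 to 0.88 for these 4 genes, which likewise follows in part from their choice by r over the same arrays.

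Among 30 genes for other transmembrane proteins with extracellular leucine-rich repeats, the wider family of Elfn1, 27 were tested. Limma called 0 of them in either direction, where it called 0.21% of all genes tested, and 0 in each of the 27 alternatives. At an unadjusted p under 0.05, 6 were lower and 0 higher. That is 22.2% lower and 0% higher, where 7.10% and 3.94% of all genes tested were at this unadjusted p. Their median difference was -0.18 against 0.01 over all genes tested. Of the 27 genes 21 were negative, 77.8% against 46.7% of all genes, and 8 had every cKO array below every control, 29.6% against 7.65%. Lrfn2, which encodes a synaptic adhesion protein, had a value of -0.73 ± 0.12 (adjusted p = 0.105), and Slitrk5 one of -0.33 ± 0.084 (adjusted p = 0.271). Over the 27 genes the values ran from -0.81 to 0.31. Among the 10 pan-neuronal markers 0 were called, the median was -0.16, 8 of 10 were negative and 4 of 10 had every cKO array below every control; the part of these markers in the LRR values was not tested.

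The known binding partners of ELFN proteins did not pass the test. Of 8 genes 6 were tested. Limma called 0, where it called 0.21% of all genes tested, so 0 is near that share. At an unadjusted p under 0.05, 0 were lower and 1 higher. That is 0% and 16.7%, against 7.10% and 3.94% of all genes. The median was -0.05 against 0.01 over all genes. Grm8, a group III metabotropic glutamate receptor, had a value of 0.25 ± 0.093 (adjusted p = 0.402), with all cKO arrays above all controls. Grm7, of the same group, had one of -0.79 ± 0.47 (adjusted p = 0.593). The phosphatase subunit genes Ppp1ca and Ppp1cc, outside the naming rule and chosen by their role after values were seen, had -0.05 ± 0.069 and 0.09 ± 0.15.

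Relatives of the Megf genes gave values of both signs. Of 16 genes once named MEGF or carrying similar EGF-like repeats, 12 were tested. Limma called 0, where it called 0.21% of all genes tested, so 0 is near that share. At an unadjusted p under 0.05, 1 was lower and 1 higher. That is 8.33% each, against 7.10% lower and 3.94% higher of all genes. The median was 0.07 against 0.01 over all genes. Slit2, an axon guidance ligand, had a value of 0.90 ± 0.21 (adjusted p = 0.243) with all cKO arrays above all controls, and Celsr3, an atypical cadherin, one of -0.31 ± 0.10 (adjusted p = 0.347). Pear1, the third gene of the Megf10 and Megf11 family and likewise outside the rule, had -0.07 ± 0.40.

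The engulfment pathway in which MEGF10 is a receptor also held no called gene. Of 21 genes 20 were tested. Limma called 0, where it called 0.21% of all genes tested, so 0 is near that share. At an unadjusted p under 0.05, 1 was lower and 0 higher. That is 5% and 0%, against 7.10% and 3.94% of all genes. The median of 0.07, against 0.01 over all genes, turned negative in 7 of 27 alternatives. Elmo1, which helps to activate Rac, had a value of -0.59 ± 0.16 (adjusted p = 0.283), and the receptor gene Lrp1 one of -0.28 ± 0.12 (adjusted p = 0.462). Gulp1, the adaptor of MEGF10, also outside the rule, had 0.20 ± 0.17.

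Of 17 tested genes of the MGE and its interneurons, the lineage in which Elfn1 is known, 4 fell, 0 rose and 13 did not pass. The 4 are 23.5% of the list, against 0.127% of all genes called lower, and the median was -0.75 against 0.01. Nkx2-1, which specifies the MGE and lies outside the naming rule, had a value of 0.13 ± 0.20. It was the 1 positive gene of the list, and 16 were negative (94.1% against 46.7% of all genes tested). In 10 genes every cKO array lay below every control, 58.8% against 7.65% of all genes. Sst and Npy, likewise outside the rule, had -3.50 ± 0.52 and -1.45 ± 0.19 (limma, adjusted p = 0.0859 and 0.0608). The homeobox genes Lhx8, Gbx1 and Lhx6 differed by -2.04 ± 0.17, -1.47 ± 0.13 and -1.18 ± 0.15, and Nxph1, which encodes a secreted neurexin ligand, by -0.86 ± 0.085 (limma, adjusted p = 0.0152, 0.0152, 0.0491 and 0.0237). This list was written with earlier results of these arrays known, so its share of called genes and its median may follow from the choice of genes. The count was 0 without control replicate 2, 3 or 4 or cKO replicate 3, and 1 without control replicate 1 or cKO replicate 2.

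**Figure D4:**
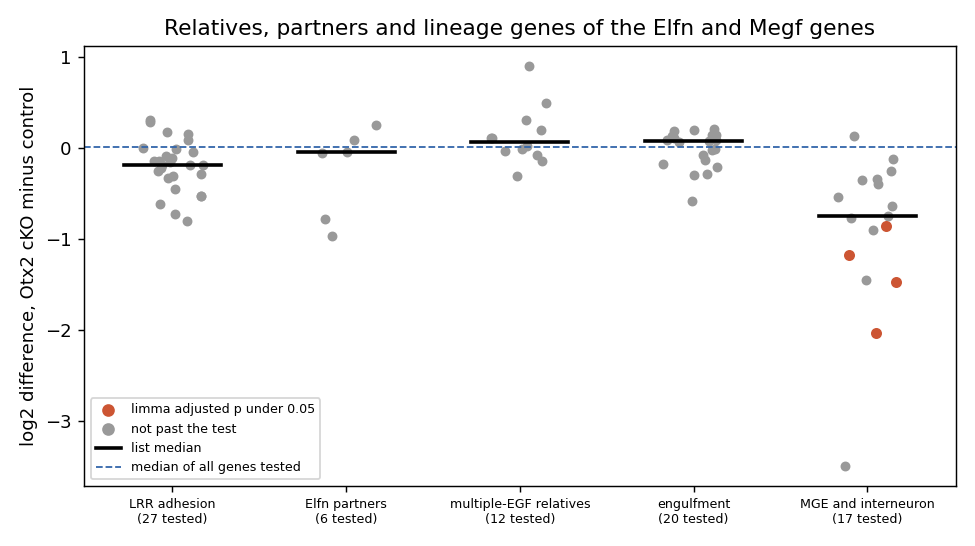
Log2 difference between Otx2 cKO and control arrays (vertical axis) for each tested gene of 5 lists; orange points passed limma's test, grey points did not, black lines are list medians and the dashed line is the median of all genes tested. Of the lists, the MGE and interneuron genes hold 4 points past the test and a median of -0.75, and the others hold 0 such points. The lists were chosen with earlier results of these data known, so this contrast may follow from the choice of genes.

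Markers of cell types were set beside the members, as medians per array relative to the control mean. The MGE and interneuron list lay at -0.79 to -0.72 in the cKO arrays against -0.08 to 0.07 in controls. The 7 tested oligodendrocyte lineage genes lay at -0.95 to -0.80 against -0.02 to 0.01. Olig1 was the 1 gene of this list called lower, 14.3% against 0.127% of all genes tested. Pdgfra and Bcas1 overlapped between the groups, and Nkx2-2 had a cKO mean of -7.10, near the floor of -7.45. The 10 subpallial GABAergic markers lay at -0.31 to -0.13 against -0.09 to 0.08, and the 10 radial glia markers at -0.02 to 0.17 against -0.12 to 0.08. The pan-neuronal markers lay at -0.24 to -0.08 against -0.09 to 0.04, and the 9 tested pallial markers at -0.21 to -0.03 against -0.11 to 0.07. The 6 tested choroid plexus genes, which include Otx2, lay between -0.30 and 0.32 in controls. Their cKO values were 0.08 for replicate 1, 0.74 for replicate 2 and 0.50 for replicate 3. Otx2 was the 1 gene among them called higher, where 0.0825% of all genes tested were. In bulk tissue fewer cells of a type and less RNA per cell cannot be told apart, and the part of these shifts in the member results was not tested.

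Markers of non-neural cells varied widely within both groups. The 10 mesenchyme and pericyte markers ranged from -1.89 to 0.85 in controls and from -2.01 to 1.89 in cKO arrays, and the 8 endothelial markers from -0.44 to 0.26 and from -0.65 to 0.63. For mesenchyme, cKO replicate 1 was the lowest of the 7 arrays and cKO replicate 2 the highest. The microglia and macrophage list ranged from -0.36 to 0.18 in controls and from -0.41 to 0.62 in cKO arrays, and the erythroid list from -0.34 to 0.44 and from -0.19 to 0.61. With the mesenchyme median of each array as a covariate, Elfn1 differed by -1.31 ± 0.11 and Megf11 by -1.79 ± 0.22. In that fit Elfn2 differed by -0.16 ± 0.11, Megf9 by -0.07 ± 0.10 and Megf10 by 0.12 ± 0.11. Beyond that fit, the part of these lists in the member results was not tested.

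No chromosomal neighbour of a member passed the test. For each member the nearest 2 tested genes on either side were read in RefSeq gene order, 20 genes in all. Between a member and its flanking gene lay 0 to 33 other annotated genes. Limma called 0 of them, where it called 0.21% of all genes tested (smallest adjusted p = 0.289). At an unadjusted p under 0.05 were 3, where 11.0% of all genes tested were. Next to Elfn1, Mad1l1 differed by -0.19 ± 0.072, Psmg3 by 0.17 ± 0.11, Tmem184a by 0.21 ± 0.19 and Nudt1 by 0.10 ± 0.085. Next to Megf11, Dis3l differed by 0.23 ± 0.14, Tipin by -0.02 ± 0.13, Rab11a by -0.01 ± 0.10 and Ints14 by -0.04 ± 0.078. These 8 values ran from -0.19 to 0.23. The strongest value flanking a paralog was that of Tex43, at -1.40 ± 0.97, with 10 annotated genes between it and Megf10. Frmd3, with 33 annotated genes between it and Megf9, had -0.39 ± 0.11 (limma, adjusted p = 0.289).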

How the data were processed

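RNA from 7 embryos was labelled with Cy3 and hybridised to single-colour Agilent arrays, per the labels' protocols. Per the file headers, the authors' scanner software (Agilent Feature Extraction 10.7.3.1; the submitters' processing notes name 10.5) subtracted background and detrended each spot intensity within its array. A value table deposited by the authors holds log2 values, with a normalization that the sources used here do not state. From the intensities, control spots and outlier-flagged spots (1.24% to 2.51% per array) were left out. Signals were divided by the array's 75th percentile over probes, floored at a log2 value of -7.45 and taken to log2. Probes were named through RefSeq accessions (GRCm38.p6 gene table; 24844 of 41174 probes had 1 symbol, 0 several and 16330 none). The brightest probe stood for a gene and was tested when well above background on at least 3 arrays, with at least 2 unflagged values in each group. Group was the only term of the fit (limma 3.58.1, R 4.3.3, lmFit, then eBayes, Benjamini-Hochberg, threshold 0.05). The code was also run on simulated independent arrays without litter or slide effects, which does not test the calls made here. Precision is limited by the number of arrays. Each p-value sets the group difference against the spread between these embryos, with a variance that eBayes draws toward that of other genes. The fit treats embryos of the same litter as independent. With litter as a fixed block, limma called 0 genes. Only litter 2 holds both groups, so that fit draws the group difference from litter 2 alone. With litter as a random block, limma called 30 genes.

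The members and gene lists were chosen with earlier results of these data known. The genes named were the members, Otx2, in each pathway list those past the threshold or otherwise the 2 with the smallest p, the 5 genes with the profile most like Elfn1 and Megf11, and the flanking genes; 1 gene that this rule names is not reported here. Alternatives covered background, scaling, floor, filter, flagged spots, probe choice, slide, litter, replicate number, single arrays, variance model, array weights and a mesenchyme covariate. Normexp on the mean signal was replaced, after seeing the data, by normexp on the median signal with an offset of 50, because the columns of these files give a median signal; the setting without background subtraction was also added then. Equal replicate numbers did not pair the embryos: deviations of same-numbered arrays correlated at 0.11, -0.53 and 0.03.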

Additional observations from a re-analysis of the deposited data

Results flagged for a closer look

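In 48 genes named or flanking, the 4 control arrays were examined for a single array far from the rest, a check that chance meets in about 1 of 20 groups, and 2 genes stood out. Gbx2, the gene with a profile like Elfn1, had control replicate 4 at a log2 signal of -0.29 while the other controls lay at -0.03 to -0.02; the gap was 0.956 of the control range. Slc12a2, a flanking gene of Megf10, had control replicate 3 at 1.22 with the others at 1.60 to 1.64, a gap of 0.884 of the range. No control array of a member met this rule.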

How the results depend on the processing

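Elfn1 and Megf11 kept their direction in all 27 alternatives, while Elfn2 and Megf9 were each negative in 25 and Megf10 in 1. The Megf11 difference was -1.20 with normexp, -1.35 without background subtraction and -1.44 in the authors' table. Within slide 1, where the cKO group is 1 array assumed to vary like the controls, Elfn1 was -1.10, Elfn2 0.10 and Megf10 -0.11; within slide 2 Megf10 was 0.27. Leaving out 1 array gave -1.41 to -1.18 for Elfn1, -0.25 to 0.01 for Elfn2, -0.11 to 0.02 for Megf9, 0.05 to 0.21 for Megf10 and -1.94 to -1.62 for Megf11.

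Limma called 28 genes with all arrays. It called 57 with normexp, 46 without background subtraction, 43 in the authors' table and 50 with a variance trend, but 18 without a floor, 15 without a filter, 16 with slide as a block and 15 with the mesenchyme covariate. Leaving out 1 array gave 0 to 25. With litter as a random block it called 30. It called 0 within slide 1, within slide 2, with litter as a fixed block and within litter 2. With the replicate block it called 0 as well (at an unadjusted p under 0.05, 601 genes were higher and 898 lower); that number pairs no embryos. Over the fits that called 0, between 213 and 601 genes were higher and 198 to 998 lower at that unadjusted p. The MGE and interneuron count, 4 with all arrays, was 9 with normexp, 7 without background subtraction, 7 with a variance trend, 2 with median scaling and 2 when probes of a gene were averaged. It was 0 within slide 1, slide 2 and litter 2, with litter as a block and with the replicate block, and 0 to 5 without 1 array. The cause was not tested. Normexp on the mean signal was not run. The Elfn2 probe, at 3.41 to 4.25 times its local background, shows only differences larger than its spread between arrays.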
